A study of Mus musculus with 6 samples.

Results

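The genes that encode cyclin-dependent kinase (CDK) inhibitors were compared between mouse skin tumors and healthy skin. They are Cdkn2a, Cdkn2b, Cdkn2c and Cdkn2d of the INK4 family and Cdkn1a, Cdkn1b and Cdkn1c of the CIP/KIP family, chosen by the gene name that the array gives to each probe. All 7 genes were on the array, with 12 probes on 21 spots, and all 12 probes passed the filter on dim signals that left 24756 features (genes, or probes without a gene name) in the whole table. Expression was measured as the brightness of Cy3-labelled RNA on 1-colour arrays of 60-base probes, with 3 arrays of healthy skin and 3 of tumors. All samples came from female mice of the inbred strain FVB/N. Tumors, which the labels call cSCC, had been raised with the mutagen DMBA followed by the phorbol ester PMA (also named TPA) for 6 weeks, and by another DMBA dose and 14 more weeks of PMA. Healthy skin had received the solvent acetone. The tumors alone had been exposed to DMBA and PMA, so tumor and treatment cannot be told apart in any value given here. Nothing in the labels ties each biopsy to a mouse of its own, and p-values here therefore reflect only the variation among these 6 samples, part of which may be technical.

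CDK inhibitors hold back the kinases that carry a cell from growth into DNA synthesis. INK4 proteins bind CDK4 and CDK6 and keep them from the D-type cyclins, while CIP/KIP proteins bind cyclin-kinase complexes, mainly those of CDK2. Both brakes keep the retinoblastoma protein RB active and E2F factors silent. Cdkn2a encodes 2 proteins from separate first exons, the INK4 protein p16INK4a and p19ARF, which binds MDM2 and so stabilizes p53, and Cdkn1a (p21) is the classical p53 target of the family. In epidermis, CDK inhibitors accompany the exit of keratinocytes from the cell cycle, and p16INK4a also marks senescent cells.

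In tumors, Cdkn2a and Cdkn2b were higher, Cdkn2c, Cdkn1b and Cdkn1c were lower, and Cdkn2d and Cdkn1a did not pass the test. The 2 members that rose and 3 that fell stand against 10.3% of all features higher and 15.6% lower in tumors (limma, Benjamini-Hochberg adjusted p under 0.05). Both rises were neighbouring genes of chromosome 4, Cdkn2a by 237-fold and Cdkn2b by 4.31-fold. The fold of Cdkn2a is uncertain because its healthy signal was near background, and its log2 difference ran from 6.16 to 8.78 over the alternatives. The falls ranged from 2.26-fold for Cdkn1b to 4.26-fold for Cdkn1c. The rises held under nearly all processing alternatives, whereas each of the falls lost its call under at least 8 of 20. All signals below are log2 values relative to the 75th percentile of the same array. A value can be compared between arrays for 1 probe, not between probes.

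**Figure D1:**
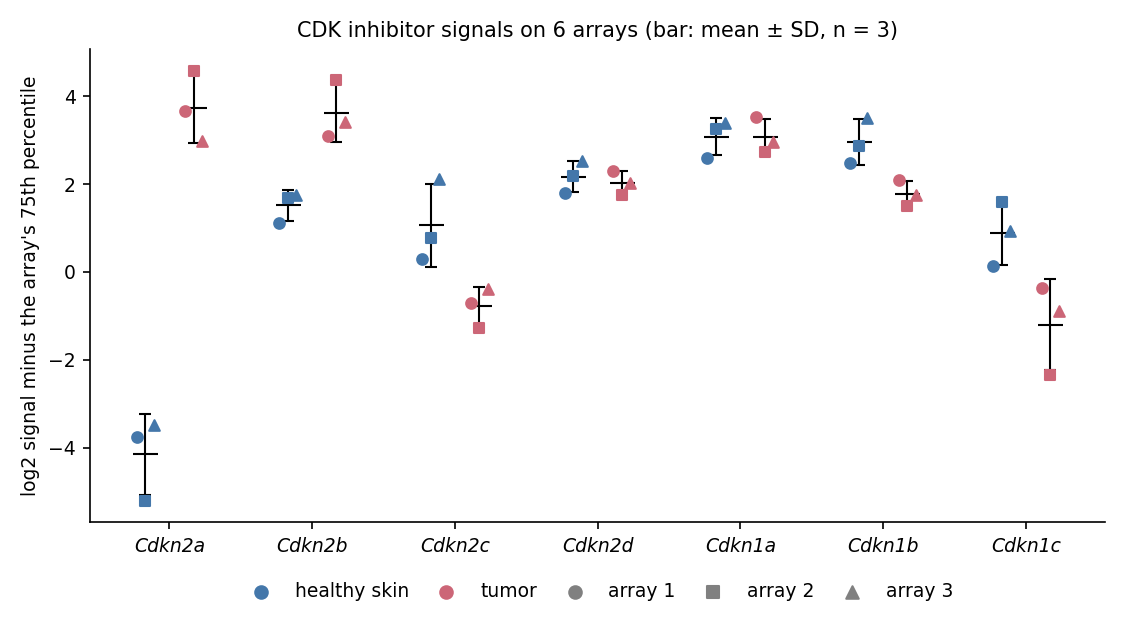
Log2 signal minus the array's 75th percentile (vertical axis) of the probe that represents each of the 7 genes, on the 3 healthy skin arrays (blue) and the 3 tumor arrays (red), with the mean and SD of each group. The groups do not overlap for Cdkn2a, Cdkn2b, Cdkn2c, Cdkn1b and Cdkn1c and overlap for Cdkn2d and Cdkn1a. In the whole table the groups did not overlap for 12294 of 24756 features, so this trait is common on these arrays.

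The arrays were unequal in quality. Between 48.7% and 65.4% of the spots on each array were well above background. Healthy skin 3 was the dimmest array (75th percentile signal 242 intensity units, against 525 to 897), and tumor 1 had a median background of 85 units against 23 to 26 elsewhere. Both groups had the keratinocyte markers of skin, with all 6 basal markers well above background on every array and 0 of 6 called (summed linear signal 806 to 1393 in healthy skin and 782 to 991 in tumors, in multiples of the array's 75th percentile). Log2 differences of the basal markers ran from -2.72 for Krt15 to 0.97 for Krt14. Krt15 varied widely among tumors (scaled log2 signal 7.65, 5.14 and 2.48 in tumors 1, 2 and 3). Markers of several other cell types differed between the groups, against 10.3% of all features higher and 15.6% lower. Skeletal muscle genes fell in 8 of 8 (summed signal 1124 to 1645 in healthy skin and 32.8 to 87.4 in tumors), suprabasal keratinocyte genes fell in 3 of 6 (1218 to 1765 and 137 to 460), and neutrophil genes rose in 5 of 6 (205 to 264 and 501 to 758), of which Mmp8 was well above background on 3 of 6 arrays. The neutrophil sum in healthy skin was carried by the remaining gene, Csf3r, which was not called (scaled log2 mean 7.85 in healthy skin and 7.09 in tumors). Most of the rise of the sum came from S100a8 and S100a9 (scaled log2 means 1.58 and 2.56 in healthy skin, 6.93 and 8.24 in tumors). Which cells expressed these genes was not tested. Adipocyte genes fell in 4 of 5, while the sum (52.8 to 197 and 64.3 to 194) was carried by the remaining gene, Fabp4, which was not called. Hair genes fell in 3 of 7 (3.16 to 290 and 1.16 to 63.7) and T cell genes fell in 2 of 5 (11.1 to 30.7 and 8.57 to 11.6). Of fibroblast genes 1 of 6 rose and 1 fell (223 to 417 and 267 to 560), and 1 of 6 macrophage genes (26.8 to 39.3 and 17.9 to 55.4) and 1 of 5 endothelial genes (12.7 to 69.0 and 9.64 to 11.8) rose. These counts were close to the shares over all features, and the fibroblast and macrophage sums overlapped between the groups. The endothelial sum was carried by Kdr, which was not called (scaled log2 mean 4.29 in healthy skin and 2.98 in tumors). The endothelial gene that rose was Emcn. The part of these cell types in the differences of the CDK inhibitors was not tested. In these bulk samples, fewer cells of a type and less RNA per cell cannot be told apart.

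The probes decide which transcripts each value reads, so the start of each probe that the results turn on is shown first (its first 30 of 60 bases as listed in the files, 5′ to 3′, in lower case with nothing marked). Positions are those of the array's own annotation, build mm9. Both Cdkn2a probes carry the accession NM_009877 and lie on the minus strand at chr4:88920405-88920464 and chr4:88920543-88920602, and the array's entries for them also list NM_001040654, so neither tells the transcripts of p16INK4a and p19ARF apart. The Cdkn2b probes (NM_007670) lie at chr4:88952276-88952335 and chr4:88952720-88952779. The Cdkn1a probes lie on the plus strand at chr17:29237377-29237436 (NM_007669), chr17:29235299-29235358 (ENSMUST00000122348) and chr17:29227986-29228045 (NM_001111099, named as transcript variant 2). Whether each probe lies in coding sequence or in a UTR was not analysed here.
Cdkn2a A_55_P2008437: ggcatgagaaactgagcgaaggcggccgcg
Cdkn2a A_55_P2008438: cttctagcgatgctagcgtgtctagcatgt
Cdkn2b A_55_P1988183: ccagtgatgaattgtagtggtagcaggtta
Cdkn2b A_55_P1979526: ttgagcctcaccttgaagccaaggggatca
Cdkn1a A_51_P363947: ctaagggagctcacaggacactgagcaatg
Cdkn1a A_55_P1976204: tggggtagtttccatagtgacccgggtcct
Cdkn1a A_55_P1986282: aatggagacagagaccccagataattaagg

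Cdkn2a had the largest difference of the family. Its brighter probe gave background-subtracted intensities of 39.1, 17.7 and 21.5 units in healthy skin 1, 2 and 3 and of 8225, 20255 and 7052 units in tumors 1, 2 and 3. On the scaled log2 axis these were -3.75, -5.21 and -3.49 in healthy skin and 3.67, 4.58 and 2.97 in tumors. Every tumor lay far above every healthy skin sample, and tumor 2 was the highest. The log2 difference was 7.89 ± 0.57 SE (n = 3 each, limma adjusted p = 0.000414), which ranked 42 from the top among 24756 features. The healthy level was close to background, with healthy skin 1 and 3 well above it and healthy skin 2 not, so the size is less certain than the direction. It was 6.92 in the authors' deposited log2 values and 6.16 with normexp background correction.

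The dimmer Cdkn2a probe gave scaled log2 signals of -7.17, -7.27 and -6.45 in healthy skin, where it was not well above background on any array, and of -1.65, -0.86 and -2.51 in tumors. Tumor 2 was again the highest and tumor 3 the lowest. It was at least 8.94-fold higher in tumors (limma adjusted p = 0.000771 over all probes, from signals that in healthy skin were at background). It passed the detection filter through the tumor arrays alone. For this bound the healthy signal of each array was raised to the dimmest one that was still well above background there, where it lay under it. Slide row 2 held all tumors but only 1 healthy sample, healthy skin 3, so each difference within it sets the tumors against that dim array, and its p takes the spread from the tumors and from the healthy samples of row 1. There the brighter probe differed by 7.23 (limma adjusted p = 0.00579). Without the dim healthy skin 3 and the high-background tumor 1 together it differed by 8.25 (limma adjusted p = 0.0118).

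Cdkn2b encodes p15INK4b, an INK4 inhibitor that TGF-beta signaling induces. Its brighter probe gave 1.11, 1.67 and 1.75 in healthy skin and 3.09, 4.36 and 3.40 in tumors on the scaled log2 axis. The groups did not overlap, and tumor 2 was the highest here as well. The log2 difference was 2.11 ± 0.40 SE, or 4.31-fold (n = 3 each, limma adjusted p = 0.0101). The other probe gave -1.68, -1.23 and -2.97 in healthy skin and 0.68, 1.87 and 0.91 in tumors, a difference of 3.12 ± 0.53 SE (limma adjusted p = 0.00657 over all probes). Both Cdkn2b probes were well above background on all 6 arrays. Within slide row 2 the brighter probe's difference was 1.86 and missed the threshold (limma adjusted p = 0.0532). Without healthy skin 3 and tumor 1 it was 2.49 (limma adjusted p = 0.0298).

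The 2 genes that rose are neighbours. The window of 300 kb around the Cdkn2a probe on the array's map was chosen after the members' values were seen. In it 2 features with a symbol were measured and both rose, against 10.3% of all features. They were Cdkn2b, 31.9 kb away, and Mtap, 94.2 kb away, which encodes the methionine salvage enzyme methylthioadenosine phosphorylase. Mtap went from a scaled log2 mean of -2.35 in healthy skin to 0.60 in tumors (log2 difference 2.95 ± 0.60 SE, limma adjusted p = 0.0123). It passed the test in 20 of 20 alternatives, with the lowest difference (2.06) under normexp correction.

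Sequence before the starts of Cdkn2a and Cdkn2b is shown because these genes moved together. The 250 bases before each start were taken from RefSeq (build GRCm38.p6) and searched on both strands for GGGCGG (the SP1/KLF box), TGANTCA (AP-1), TGACGTCA (cAMP response element), TTTNGCGC (E2F), TATAAA (the core promoter element), CACGTG (E-box) and, with at most 1 mismatch and no spacer, the 20-letter p53 consensus. Capitals mark matches. The more distal Cdkn2a start, which serves p19ARF, had 2 SP1/KLF boxes (present in 32.7% of all 32851 windows) and 40 CpG dinucleotides. The proximal start, which serves p16INK4a, had 7 CpG dinucleotides and 1 E2F match (1.13% of windows). Cdkn2b had 1 cAMP response element (1.55% of windows), beginning 46 bases before the start. No other motif of this set was found in these windows, which says only that these letters are absent there.
Cdkn2a distal, minus strand, chr4:89294620-89294869: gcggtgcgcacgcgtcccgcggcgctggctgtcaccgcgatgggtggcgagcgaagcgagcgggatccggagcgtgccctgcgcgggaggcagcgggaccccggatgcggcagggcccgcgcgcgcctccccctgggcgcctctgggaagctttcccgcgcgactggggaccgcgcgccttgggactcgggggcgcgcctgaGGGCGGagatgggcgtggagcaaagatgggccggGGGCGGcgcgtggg
Cdkn2a proximal, minus strand, chr4:89282193-89282442: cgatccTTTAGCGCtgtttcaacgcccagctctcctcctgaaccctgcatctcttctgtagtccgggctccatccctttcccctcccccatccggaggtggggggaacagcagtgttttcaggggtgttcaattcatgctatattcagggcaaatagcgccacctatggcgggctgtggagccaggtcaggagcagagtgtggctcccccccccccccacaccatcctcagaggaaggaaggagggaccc
Cdkn2b, minus strand, chr4:89311033-89311282: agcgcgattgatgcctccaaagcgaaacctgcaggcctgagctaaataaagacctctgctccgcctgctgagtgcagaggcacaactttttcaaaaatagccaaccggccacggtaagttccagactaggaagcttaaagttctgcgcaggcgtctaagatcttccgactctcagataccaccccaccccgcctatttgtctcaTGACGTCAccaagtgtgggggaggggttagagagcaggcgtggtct

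Neither of the other INK4 genes was called higher. Cdkn2c, which encodes p18INK4c, was read by 1 probe (NM_007671, chr4:109333508-109333567, minus strand, mm9). Its scaled log2 signals were 0.29, 0.78 and 2.12 in healthy skin and -0.70, -1.27 and -0.38 in tumors. The groups did not overlap, but healthy skin 3 stood well above the other healthy samples. This was a log2 difference of -1.85 ± 0.51 SE, or 3.59-fold lower in tumors (n = 3 each, limma adjusted p = 0.0351). The difference was -2.90 within slide row 2, where that high sample is the only healthy one, and -1.36 without healthy skin 3 and tumor 1, where it was not called (limma adjusted p = 0.0790). Leaving out healthy skin 2, tumor 1, tumor 2 or tumor 3 also ended the call (limma adjusted p = 0.0657, 0.0798, 0.105 and 0.0535).

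Cdkn2d encodes p19INK4d, the fourth INK4 protein, and was read by 1 probe (NM_009878, chr9:21092934-21092993, minus strand, mm9). It gave 1.80, 2.19 and 2.52 in healthy skin and 2.30, 1.76 and 2.01 in tumors, so the groups overlapped throughout. It differed between the groups by -0.15 ± 0.31 SE (95% confidence interval -0.87 to 0.58, limma adjusted p = 0.751). Its sign turned with median scaling (0.22), spike-in scaling (0.74) and without healthy skin 3 (0.03). The interval covers both directions.

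**Figure D2:**
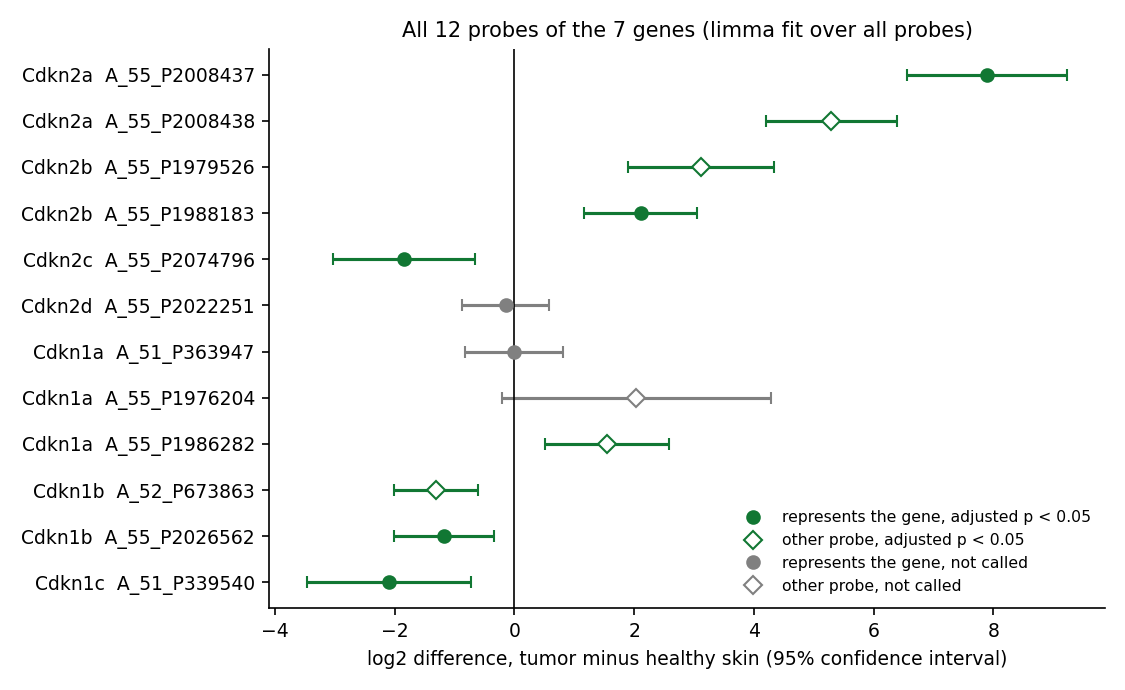
Log2 difference between tumor and healthy skin (horizontal axis, tumor minus healthy skin) with its 95% confidence interval for all 12 probes, from the limma fit over all probes. Both probes of Cdkn2a, Cdkn2b and Cdkn1b lie on the same side of 0, whereas the main Cdkn1a probe lies at -0.01 and the other Cdkn1a probes at 2.04 and 1.54. The point of the dimmer Cdkn2a probe includes healthy skin signals at background.

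Cdkn1a encodes p21, the CIP/KIP inhibitor that p53 induces. Its main probe was printed on 10 spots per array with an SD over the spots of 1 array between 0.03 and 0.04 on the log2 scale. It gave 2.60, 3.25 and 3.40 in healthy skin and 3.52, 2.74 and 2.96 in tumors. The samples of the groups were interleaved, and the spread between arrays of a group (SD 0.42 and 0.40) was far wider than the spread between spots. The log2 difference was -0.01 ± 0.35 SE (95% confidence interval -0.82 to 0.81, n = 3 each, limma adjusted p = 0.992). Its sign turned with median scaling (0.36), spike-in scaling (0.88), normexp correction (0.07), the mean of the gene's probes (1.19) and without healthy skin 2, healthy skin 3, tumor 2 or tumor 3 (0.05 to 0.16), and none of these values was called.

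The other Cdkn1a probes read weaker signals. The probe for transcript variant 2 gave -5.14, -4.44 and -4.67 in healthy skin and -2.30, -3.47 and -3.85 in tumors. The groups did not overlap, and tumor 1 was the highest, but 1 of 3 healthy skin arrays (healthy skin 2) and 3 of 3 tumors were well above background. Its log2 difference was 1.54 ± 0.45 SE (limma adjusted p = 0.0406 over all probes). The probe of ENSMUST00000122348 gave -2.17, -3.10 and -6.30 in healthy skin and -1.30, -1.97 and -2.19 in tumors, where healthy skin 1 lay above tumor 3 and healthy skin 3 was not well above background. Its log2 difference was 2.04 ± 0.97 SE and did not pass the test (limma adjusted p = 0.153 over all probes).

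Whether probes of 1 gene changed unequally was tested on the difference between probes within each array, for 5 pairs of probes. The variant 2 probe of Cdkn1a changed by 1.55 more than the main probe on the log2 scale (exact permutation p = 0.10, adjusted p = 0.167). This size is uncertain because that probe was well above background on only 1 of 3 healthy skin arrays. The change of the dimmer Cdkn2b probe minus its partner's was 1.01, again with exact permutation p = 0.10, the smallest that 3 against 3 arrays allow. The Cdkn2a pair gave the same p, but no size is given because the dimmer probe was not above background in healthy skin. For the remaining Cdkn1a probe and for the Cdkn1b pair the exact permutation p was 0.30 and 0.80. With this number of arrays no pair could reach an unadjusted p under 0.05.

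RefSeq lists separate Cdkn1a starts, shown here because the array assigns its Cdkn1a probes to different transcripts. Which start each probe reads was not tested. The window before the upstream start held a match to the p53 consensus, beginning 51 bases before the start, a match found in 25 of 32851 windows (0.0761%). The window before the downstream start held 2 SP1/KLF boxes and no p53 match. It had 19 CpG dinucleotides against 2 upstream.
Cdkn1a upstream, plus strand, chr17:29090729-29090978: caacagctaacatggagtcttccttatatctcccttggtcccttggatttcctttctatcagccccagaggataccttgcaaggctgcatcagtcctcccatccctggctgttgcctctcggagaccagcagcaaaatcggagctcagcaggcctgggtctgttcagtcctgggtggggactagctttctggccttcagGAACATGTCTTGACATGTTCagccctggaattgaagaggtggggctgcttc
Cdkn1a downstream, plus strand, chr17:29093519-29093768: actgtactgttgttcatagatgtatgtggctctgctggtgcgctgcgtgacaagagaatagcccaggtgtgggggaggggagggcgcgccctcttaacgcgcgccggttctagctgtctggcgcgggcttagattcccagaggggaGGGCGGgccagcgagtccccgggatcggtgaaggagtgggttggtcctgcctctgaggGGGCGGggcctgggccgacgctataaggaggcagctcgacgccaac

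Cdkn1b encodes p27, which restrains CDK2 and is removed by ubiquitin-dependent degradation when cells enter the cycle. Its brighter probe (NM_009875, chr6:134875424-134875483, plus strand, mm9) gave 2.48, 2.86 and 3.51 in healthy skin and 2.09, 1.49 and 1.74 in tumors. Every tumor lay below every healthy sample, by a narrow margin between tumor 1 and healthy skin 1. Its fall was -1.18 ± 0.35 SE on the log2 scale, or 2.26-fold lower in tumors (n = 3 each, limma adjusted p = 0.0464). The dimmer probe (ENSMUST00000067327, chr6:134873606-134873665, plus strand, mm9) gave -1.79, -1.91 and -2.37 in healthy skin and -3.18, -3.64 and -3.18 in tumors, a difference of -1.31 ± 0.30 SE (limma adjusted p = 0.0197 over all probes).

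The fall of Cdkn1b was close to the threshold. The brighter probe's difference was -1.74 within slide row 2, against healthy skin 3 alone (limma adjusted p = 0.0192) and -1.05 without healthy skin 3 and tumor 1 (limma adjusted p = 0.0525). Of the arrays left out singly, healthy skin 1 alone left the call standing (limma adjusted p = 0.0491). Without healthy skin 2, healthy skin 3, tumor 1, tumor 2 or tumor 3 the limma adjusted p was 0.100, 0.0744, 0.0644, 0.142 and 0.104. Median scaling gave -0.81 and spike-in scaling gave -0.29, neither called.

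Cdkn1c encodes p57, the imprinted member of the family, expressed mainly from the maternal allele. Its probe (NM_009876, chr7:150644753-150644812, minus strand, mm9) gave 0.14, 1.59 and 0.94 in healthy skin and -0.37, -2.36 and -0.88 in tumors. The groups did not overlap, and tumor 2, which had the highest Cdkn2a and Cdkn2b signals, had the lowest Cdkn1c signal. This trait is not particular to Cdkn1c. Tumor 2 was also the lowest tumor for the probes that represent Cdkn2c, Cdkn2d, Cdkn1a and Cdkn1b. The log2 difference was -2.09 ± 0.59 SE, or 4.26-fold lower in tumors (n = 3 each, limma adjusted p = 0.0376). Within slide row 2 it was -2.14 and not called (limma adjusted p = 0.123). It was not called without healthy skin 2, healthy skin 3, tumor 2 or tumor 3 (limma adjusted p = 0.103, 0.0947, 0.0847 and 0.0644), nor without healthy skin 3 and tumor 1 together (-2.48, limma adjusted p = 0.0808).

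Near Cdkn1c, several genes rose. Of 11 measured features with a symbol within 300 kb of its probe, 5 rose and 0 fell by the limma fit. Over all features 10.3% were higher and 15.6% lower, and this window was also chosen after the members' values were seen. Phlda2, an imprinted growth regulator expressed from the same parental allele, was 42.7 kb away and rose 20.1-fold (log2 difference 4.33 ± 0.39 SE, limma adjusted p = 0.000738), with 2 of 3 healthy skin arrays well above background. With normexp correction its log2 difference was 2.34, still called. The decoy TRAIL receptors Tnfrsf22 and Tnfrsf23 rose 12.9-fold and 17.1-fold (limma adjusted p = 0.0011 and 0.00105). Tnfrsf22 differed by 2.55 on the log2 scale with normexp correction, against 3.69. Tnfrsf26, not well above background in healthy skin, passed the detection filter through the tumor arrays alone. It was at least 9.17-fold higher but was not called with normexp correction. Cars, a cysteinyl-tRNA synthetase, rose 2.30-fold (limma adjusted p = 0.0426, called in 10 of 20 alternatives). Kcnq1ot1, the noncoding RNA of the domain that is read from the other parental allele, gave a log2 difference of -0.91 ± 0.56 SE (limma adjusted p = 0.262), and Kcnq1, Slc22a18 and Nap1l4 gave 1.55, 0.09 and 1.75, none called in the main setting. Osbpl5 and E230032D23Rik gave -0.59 and -0.33 and were not called either.

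**Figure D3:**
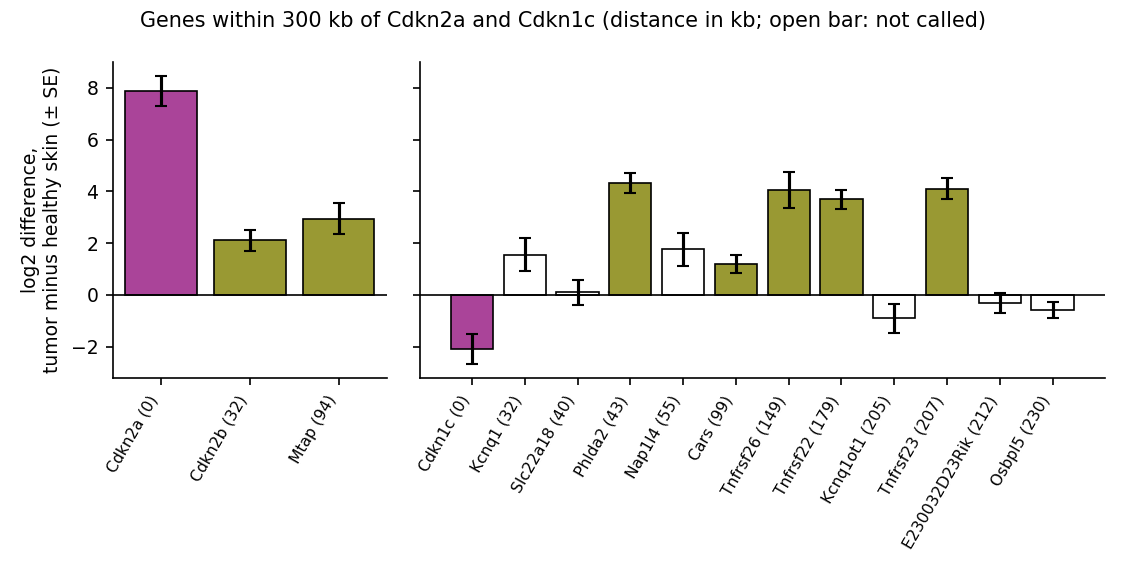
Log2 difference between tumor and healthy skin ± SE (vertical axis) for Cdkn2a and Cdkn1c (purple) and the measured features within 300 kb of each, with their distance in kb. Open bars did not pass the test. The bar of Tnfrsf26 includes healthy skin signals that were not well above background, and it passed the detection filter through the tumor arrays alone. Both measured neighbours of Cdkn2a and 5 of the 11 of Cdkn1c were called higher, against 10.3% of all features.

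The kinases and cyclins that these inhibitors act on were higher in 4 of 10 measured genes and lower in 0, with a median log2 difference of 1.22 against -0.16 over all features. For this list and those below, the shares over all features were 10.3% higher and 15.6% lower. Ccnd1, the D-type cyclin that pairs with CDK4 and CDK6, rose 6.12-fold (2.30 ± 0.33 SD in healthy skin and 4.91 ± 1.30 in tumors, limma adjusted p = 0.0216). Ccne1, the E-type cyclin of CDK2, rose 6.08-fold, Cdk1, the mitotic kinase, 4.93-fold, and Cdk6 5.92-fold with 2 of 3 healthy skin arrays well above background. With normexp correction Cdk6 differed by 0.66 on the log2 scale, against 2.57, and was not called. Ccnd1 lost its call within slide row 2, without healthy skin 2, healthy skin 3 or tumor 1, and without healthy skin 3 and tumor 1 together. Cdk4 and Cdk2 gave log2 differences of 0.74 and 0.67 and were not called. Of 8 RB and E2F genes, the RB relative Rbl1 rose 3.56-fold and E2f2 was 2.09-fold lower, with a list median of 0.33. These counts were close to the shares over all features. E2f2 lost its call without healthy skin 1, healthy skin 2, tumor 1 or tumor 2, and Rbl1 without tumor 2. Proliferation markers were higher in 9 of 12 and lower in 0 (median 1.66), among them Top2a (6.67-fold), Plk1 (5.27-fold), Bub1 (4.24-fold) and Birc5 (3.68-fold). Without tumor 2, healthy skin 2 or tumor 1 the number of proliferation markers called was 4, 5 and 5.

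Of 18 measured genes of the p53 axis, 2 rose and 3 fell, a share in each direction close to that over all features (10.3% higher and 15.6% lower), with a median log2 difference of 0.50, and Trp53 itself gave 0.64 (not called). Pmaip1, the proapoptotic protein NOXA, rose 12.3-fold (limma adjusted p = 0.00144) and Gadd45a, a stress-response gene, 2.43-fold, while Mdm4, an inhibitor of p53, was 3.23-fold and the death receptor Fas 2.70-fold lower. Sesn1, a stress-induced antioxidant gene named to complete the count, was 2.19-fold lower. With median scaling 8 of these genes rose and 0 fell, so their balance depended on the scaling. Over all 24756 features that scaling gave 4389 higher and 2586 lower. The call of Gadd45a was kept in 9 of 20 alternatives and those of Mdm4 and Fas in 13 and 12. Leaving out single arrays gave 2 calls (without healthy skin 2, tumor 1 or tumor 3) or 3 (without healthy skin 1, healthy skin 3 or tumor 2).

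Among genes that control the inhibitors, those of p27 and p21 degradation gave 1 rise and 1 fall in 10 (median 0.57), again close to the shares over all features. Cks1b, the cofactor with which SKP2 recognizes p27, rose 4.19-fold (1.66 ± 0.21 SD in healthy skin and 3.72 ± 0.48 in tumors, limma adjusted p = 0.00533), and Skp2 gave a difference of 1.0 and was not called (limma adjusted p = 0.0627). Rnf123, a ubiquitin ligase of p27, was 1.87-fold lower, a call kept in 9 of 20 alternatives and lost without healthy skin 1, healthy skin 2, tumor 1, tumor 2 or tumor 3. Of 11 regulators of the INK4/ARF locus 0 rose and 1 fell, against 10.3% of all features higher and 15.6% lower. The list median of -0.27 was 0.10 with median scaling, 0.62 with spike-in scaling and 0.01 without tumor 1. Median and spike-in scaling shift every feature alike, and they moved the median of all features from -0.16 to 0.21 and 0.73. The gene that fell was Cbx7, a Polycomb protein that represses the locus, at least 4.29-fold lower in tumors, where it was not well above background on any array (limma adjusted p = 0.00606). It passed the detection filter through the healthy skin arrays alone, and its measured log2 difference of -3.53 was -1.42 with normexp correction and -1.31 in the authors' deposited values, both called. The Polycomb genes Bmi1 and Ezh2 gave 0.83 and 0.10 and were not called.

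Transcriptional regulators of the inhibitors gave 3 rises and 1 fall in 11 (median 0.44), against 10.3% of all features higher and 15.6% lower. Tgfb1, the ligand that induces Cdkn2b and Cdkn1a, rose 4.19-fold (limma adjusted p = 0.00287, called in 20 of 20 alternatives), and Myc, a repressor of both, rose 2.52-fold (limma adjusted p = 0.024, called in 13 of 20 alternatives). Myc lost its call without healthy skin 1, healthy skin 2, tumor 1 or tumor 2. Of the forkhead factors that induce Cdkn1b, Foxo3 was 2.18-fold higher (called in 8 of 20 alternatives) and Foxo4 was 7.35-fold lower with 1 of 3 tumor arrays well above background, whereas Foxo1 gave -0.94 and was not called (limma adjusted p = 0.0656). The log2 difference of Foxo4 was -2.88, and -0.94 in the authors' deposited values, and its call was lost without healthy skin 3. Without healthy skin 1, healthy skin 2, healthy skin 3 or tumor 2 the number of calls in this list was 2. These lists were put together with earlier results of the same arrays known, so their counts are descriptions.

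**Figure D4:**
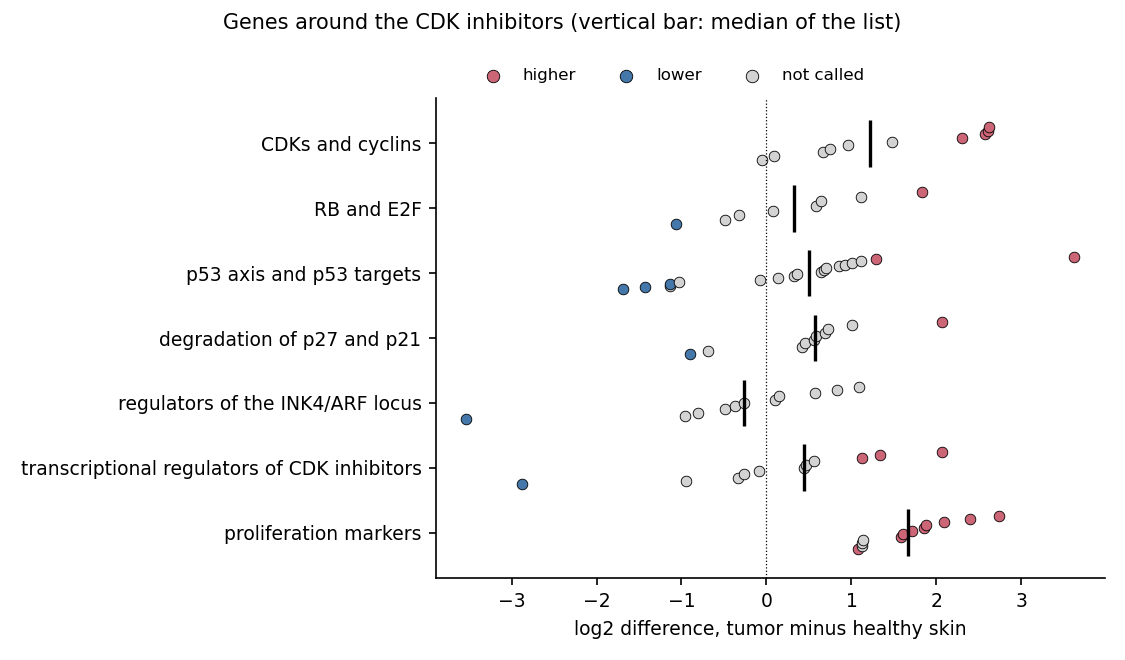
Log2 difference between tumor and healthy skin (horizontal axis) of each measured gene in the 7 lists around the CDK inhibitors, red where higher, blue where lower and grey where not called in the limma fit, with a vertical bar at the list's median. Proliferation markers (median 1.66) and CDKs and cyclins (1.22) lie to the right, and the other medians lie between -0.27 and 0.57.

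The features whose pattern over the 6 arrays was most like that of each gene are given as a description, since with 6 arrays many of the 16461 compared features follow the groups. For Cdkn2a they were Ciapin1, Mmp1b and Tac1 (Pearson r = 0.999, 0.997 and 0.995), and 551 features had r above 0.95. For Cdkn2b they were Igf2r, Pi4k2b and Riok2 (r = 0.999, 0.996 and 0.996), and for Cdkn2c they included Dock6 and Tenm1 (r = 0.999 and 0.997). Cdkn1b was closest to Ss18l2, Zfp61 and Frmd4b (r = 0.997, 0.996 and 0.996) and Cdkn1c to Serpinb3c, Gm5833 and Zkscan4 (r = 0.996, 0.993 and 0.990). Fewer features followed the 2 genes that did not pass the test, 25 features with r above 0.95 for Cdkn2d, led by Arhgef11, Dgkq and Cnnm2 (r = 0.981, 0.979 and 0.976), and 9 for Cdkn1a. Those of Cdkn1a were led by Cbr3, Scap and Perp (r = 0.982, 0.971 and 0.962). Perp is 1 of the 18 measured genes of the p53 axis and was not called (log2 difference -0.08).

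**Figure D5:**
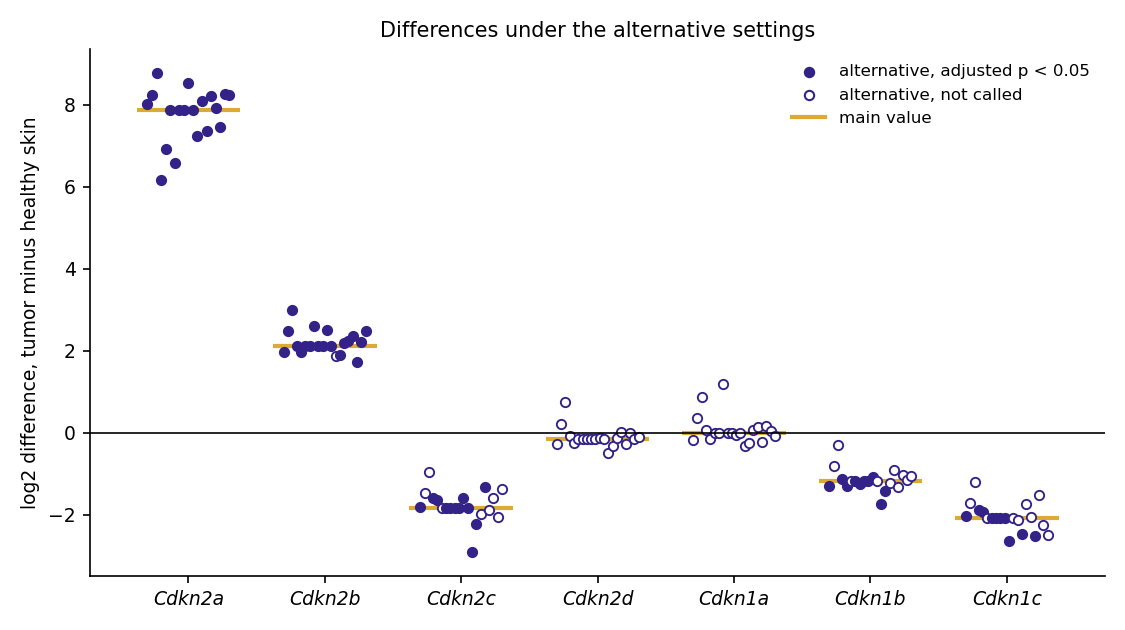
Log2 difference between tumor and healthy skin (vertical axis) of each gene under every processing alternative that gave a value (points, filled where the adjusted p was under 0.05) and in the main setting (yellow line). Cdkn2a stays between 6.16 and 8.78 and Cdkn2b between 1.73 and 3.0, all above 0, while points for Cdkn2d and Cdkn1a fall on both sides of 0.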

How the data were processed

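The authors' scanner output holds intensity values made with Agilent Feature Extraction 10.7.3.1 (background subtraction included), per the file headers. The 6 arrays lay on 1 slide, with healthy skin 1 and 2 in row 1 and the rest in row 2. The authors' deposited series table holds log2 values with column medians of 6.33 to 6.35. Limma is named, without a version, per the submitters' processing notes, and how that table was background-corrected and centred is unknown.

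Each array's processed signals were put on the log2 scale and centred on their 75th percentile over 59305 non-control spots. Spots with outlier flags were left out (180 of 55681 probes lost) and no member spot was flagged or saturated. Spots of a probe were averaged, 34283 probes passed the filter of at least 3 arrays well above background, and each gene was represented by its brightest probe on average. Names came from RefSeq by accession (15275 features), symbol (1015) or synonym (178), and 8288 features kept the array's name. Groups were compared over all 24756 features with limma 3.58.1 under R 4.3.3, using lmFit, eBayes and Benjamini-Hochberg adjustment of two-sided p-values, of which 6420 passed, and again over all 34283 probes, of which 3446 were higher and 5471 lower. The fit was checked on simulated data. Members and lists were chosen with earlier results of these data known. Named were all members and probes, up to 4 genes per list (the largest differences past the test with groups apart) and the 3 features most correlated with each member (1 is not reported here); other genes are named for their role or position, chosen after their values were seen. The alternatives tried were scaling by quantiles, the median or spike-ins, normexp (offset 50), the deposited values, other detection filters, averaging or separating a gene's probes, eBayes with a trend, weighting arrays, blocking on replicate number or on slide row, and leaving out arrays. The number of arrays limits the precision.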

Additional observations from a re-analysis of the deposited data

How the results depend on the processing

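Cdkn2a was called in the same direction in all 19 alternatives that gave a value (6.16 to 8.78), the filter for all 6 arrays having removed it, and Cdkn2b in 19 of 20, the exception being the slide row as a block (1.86). Against 5 members called in the main setting, 2 were called with median scaling, with spike-in scaling, with no detection filter and without healthy skin 3 and tumor 1 together, 3 when slide row was a block, and 2 to 5 when single arrays were left out. The number of all features called was 6420 in the main setting, 2685 with spike-in scaling, 3920 with no detection filter, 9857 with array weights and 3840 to 5458 without single arrays. It was 6975 with median scaling, more than in the main setting although fewer members were called, and 5157 without healthy skin 3 and tumor 1 together. Median and spike-in scaling add 1 constant to every difference, moving the median of all features from -0.16 to 0.21 and 0.73 and the share of higher features among the called from 39.8% to 62.9% and 70.8%. With them the calls of Cdkn2c (-1.48 and -0.96), Cdkn1b (-0.81 and -0.29) and Cdkn1c (-1.72 and -1.20) were lost, and the signs of Cdkn2d (0.22 and 0.74) and Cdkn1a (0.36 and 0.88) turned. With no filter, which tests more features, these 3 falls kept their values (-1.85, -1.18 and -2.09) without a call, and without healthy skin 3 and tumor 1 they were -1.36, -1.05 and -2.48, also without a call. Cdkn1c also lost its call with the slide row as a block (-2.14). Cdkn1a turned to 1.19 with the mean of its probes, which adds the higher values of the other probes, and to 0.067 with normexp, where the cause was not tested. Without single arrays, differences ran from 7.36 to 8.27 (Cdkn2a), 1.73 to 2.37 (Cdkn2b), -2.23 to -1.32 (Cdkn2c), -0.33 to 0.029 (Cdkn2d, the sign turning without healthy skin 3), -0.25 to 0.16 (Cdkn1a), -1.41 to -0.90 (Cdkn1b) and -2.51 to -1.51 (Cdkn1c).

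The titles number samples 1 to 3 in each group, but deviations of same-numbered samples from their group means correlated at 0.10, 0.13 and -0.08, and not every sample correlated best with its own number. With the replicate number as a block, 3 members were called (5470 features in all), Cdkn1b (-1.18) and Cdkn1c (-2.09) losing the call. Over the lists, main and alternative counts of called genes were 5 and 8 for the p53 axis with median scaling and with normexp and 1 with spike-in scaling, 1 and 3 for the regulators of the INK4/ARF locus with median scaling, 2 and 1 for degradation with normexp and spike-in scaling, 2 and 1 for RB and E2F and 4 and 1 for the transcriptional regulators with spike-in scaling. Without single arrays RB and E2F gave 0 to 2, degradation 1 to 2 and the transcriptional regulators 2 to 4. Spike-in scaling raised every log2 difference by 0.89, over 1.5 times in fold. With the mean of probes, Cdk1, Rbl1 and Foxo3 gave 1.24, 1.10 and 0.41, against 2.30, 1.83 and 1.12. Signals near background limit the folds of Cdkn2a, the weaker Cdkn1a probes, Cdk6, Phlda2, Tnfrsf26, Foxo4 and Cbx7.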
